A study of Homo sapiens with 6 samples.

Results

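The genes described here are the semaphorins and their plexin receptors, the ephrins and their Eph receptors, and the Slit ligands and their Robo receptors, measured in HT1080 cells. They were taken by gene symbol, which gave 54 of the 35820 genes in the deposited tables: 20 semaphorins, 9 plexins, 14 Eph receptors, 4 A-type ephrins, 4 Robo receptors and 3 Slit ligands. The other ephrin genes are not analysed here. HT1080 is a human line grown from a fibrosarcoma, a tumour of connective tissue. Ribosomal RNA was depleted from total RNA, and 3 libraries of wild-type (WT) cells were compared with 3 libraries of cells in which CRISPR with a guide RNA against exon 2 had disrupted TOP3B, the gene of a topoisomerase that acts on DNA and RNA. The series text gives as its aim the part of this enzyme in R-loops, where RNA pairs with DNA, and in transcription. It names the WT cells once as HCT116, a colorectal line, while all sample labels name HT1080. All knockout libraries are from the E2-2 line, so the comparison is between that line and WT cells. The labels do not say whether the replicates were separate cultures, so the p-values rest on the spread between the libraries alone, and that spread may be technical.

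Guidance molecules were named for steering growing axons, and many other cells use them to adhere, move or repel each other. Semaphorins bind plexins, with neuropilins as co-receptors for most secreted semaphorins, and plexins act on small GTPases inside the cell. Ephrins are held at the cell surface and signal in both directions with Eph receptor tyrosine kinases on a touching cell. Slits are secreted and bind Robo receptors, which act on actin through Abl kinases, Ena proteins and GTPase-activating proteins. In tumours of connective tissue these systems are studied for their part in invasion and in the growth of vessels.

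Library totals lay between 17919106 and 20475280 estimated counts, so that 1 CPM (the count scaled to library size by the TMM method) stood for about 20 counts. Knockout replicate 3 lay outside the range of the other 5 libraries for 56.4% of the 13965 genes tested, and for 20 of the 40 guidance genes tested, 7 above and 13 below. This share was computed for that library only, and any library lies outside the others for some genes. TOP3B itself was at 30.5, 19.1 and 23.1 CPM in WT and 20.02, 19.3 and 18.5 CPM in the knockout. It did not pass (adjusted p = 0.342 in the quasi-likelihood test of edgeR, with Benjamini-Hochberg adjustment). CRISPR edits can leave a transcript in place, so this level does not check the labels. Of 11 markers of mesenchymal cells 10 passed the filter on low counts, with VIM between 11310 and 12352 CPM, while THY1 was at most 0.0569 CPM. Their summed level was 30067 to 31157 CPM in WT and 18514 to 20388 CPM in the knockout, and its part in the results was not tested. The lower sum lay mostly in FN1, at 11214 to 12630 CPM in WT and 2466 to 3561 CPM in the knockout, and SPARC, at 5530 to 5866 and 3235 to 3632 CPM. The ranges of VIM overlapped between the groups, and LGALS1 lay the other way, at 19.7 to 23.3 CPM in WT and 24.4 to 27.0 CPM in the knockout. In bulk RNA, fewer cells of a kind and less RNA per cell cannot be told apart. Of 11 epithelial and colorectal markers, 9 had a mean under 1 CPM and KRT20, CDX2 and CDH17 had 0 counts. The summed level of these 11 was 4.33 to 5.07 CPM in WT and 4.13 to 5.68 CPM in the knockout.

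The main comparison asked which guidance genes differed between knockout and WT cells. SEMA3F, a secreted semaphorin, rose about 1.96-fold in the knockout, and PLXNA4, an A-type plexin, fell 2.12-fold. The receptors EPHB6 and PLXNB3 and the membrane-anchored semaphorin SEMA7A fell as well, with less support. Of the 54 genes, 40 passed the filter on low counts, and 5 of these passed an adjusted p of 0.05, 1 higher and 4 lower. Across all 13965 genes tested, 7.84% passed, 3.21% higher and 4.63% lower, and nothing particular to guidance genes is read from 5 of 40. DESeq2 called 13 of the guidance genes and 13.7% of the genes to which it gave an adjusted p. The edgeR fit without knockout replicate 3, cited below for single genes, called 13.2% of the 14358 genes it tested.

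The log2 fold changes of the 40 genes had a median of -0.29, beside 0.05 over all tested genes, and 24 of the 40 were below 0, beside 46.3% of all. In 20 of the 40 the groups did not overlap, 6 higher and 14 lower in the knockout, where 33.6% of all tested genes did not overlap, 16.5% higher and 17.1% lower. Without knockout replicate 3 the median of the 40 genes was -0.21 and that of all genes 0.01. SEMA3F and PLXNA4 passed with each of the 6 libraries left out. EPHB6, SEMA7A and PLXNB3 passed in 1 of these 6 fits, the one without knockout replicate 3, and their adjusted p reached 0.121, 0.142 and 0.129 in the others.

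**Figure D1:**
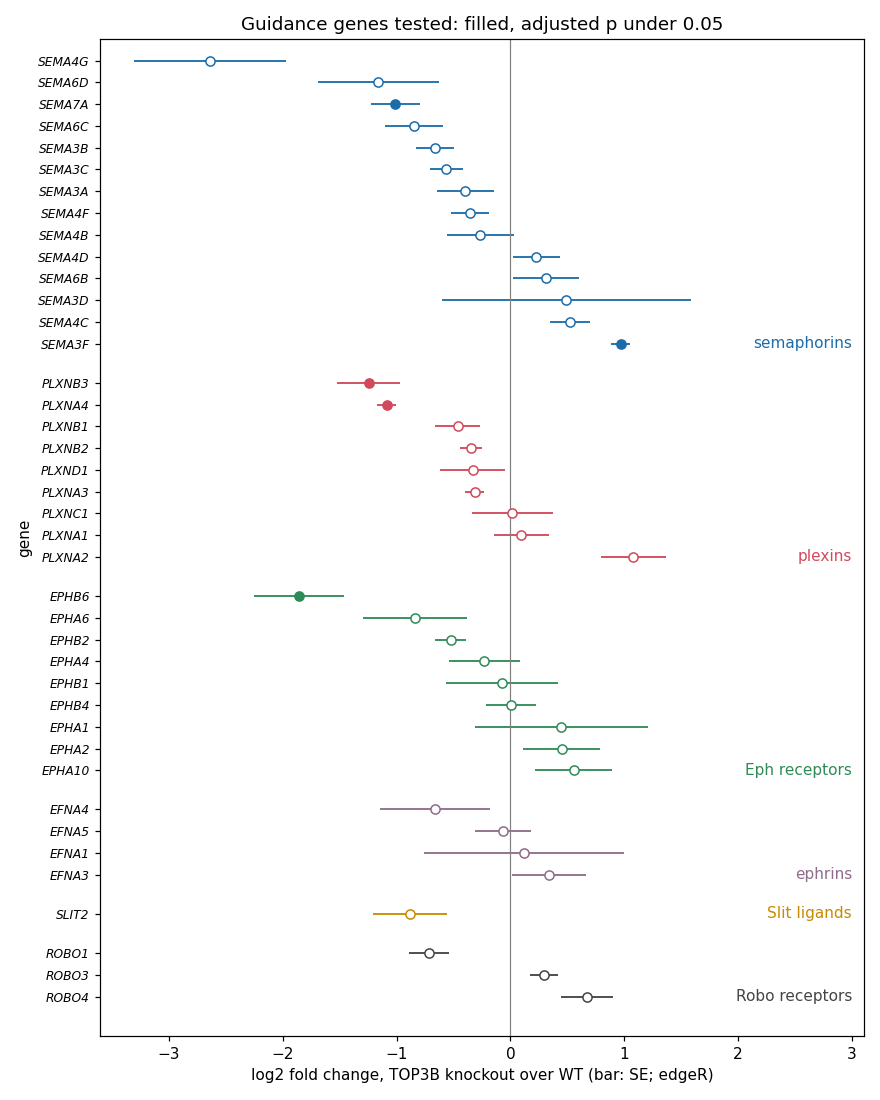
Log2 fold change of each tested guidance gene, knockout over WT, grouped by family, with its standard error as a horizontal bar. Filled points passed an adjusted p of 0.05: SEMA3F at 0.97 is the only one to the right of 0, and SEMA7A, PLXNB3, PLXNA4 and EPHB6 lie between -1.01 and -1.86.

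Among the 20 semaphorins, 14 were tested, of which SEMA3F rose, SEMA7A fell and 12 did not pass. SEMA3F is a secreted semaphorin that binds neuropilin-2 and repels axons and endothelial cells. Its levels were 106, 104 and 105 CPM in the WT libraries and 193, 215 and 209 CPM in the knockout libraries. The WT libraries lay close together, and each knockout library lay far above them. The log2 fold change was 0.97 ± 0.08 (SE), with an adjusted p of 0.00291 in edgeR's test and 0.00194 to 0.0331 over the fits with 1 library left out. Knockout replicate 3, apart for many genes, lay between the other knockout libraries for SEMA3F.

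Other secreted class 3 semaphorins stayed below the test's threshold. SEMA3C, which binds both neuropilins, was at 109.9, 116 and 111 CPM in WT and 77.0, 89.2 and 61.5 CPM in the knockout. SEMA3B, whose gene lies beside SEMA3F on the short arm of chromosome 3, was at 27.6, 22.3 and 21.2 CPM in WT and 13.8, 14.3 and 16.8 CPM in the knockout. All knockout values of these 2 genes were under all WT values, at log2 fold changes of -0.56 ± 0.15 and -0.66 ± 0.17 (SE), with adjusted p of 0.0665 and 0.0600 in edgeR's test. Without knockout replicate 3 both passed, at adjusted p of 0.0262 and 0.0323. SEMA3A, the founding axon repellent of the class, was at 11.5, 10.2 and 10.8 CPM in WT and 8.81, 10.3 and 5.63 CPM in the knockout, and the groups overlapped. SEMA3D was erratic within both groups, at 3.02, 0.101 and 3.25 CPM in WT and 0.541, 4.83 and 3.58 CPM in the knockout. SEMA3E and SEMA3G had 0 counts in all 6 libraries, which allows up to 3 counts or 0.148 to 0.171 CPM in each, for counting error only.

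SEMA7A is held to the membrane by a lipid anchor and binds PLXNC1 and beta-1 integrins. It was at 95.7, 127 and 119 CPM in WT and 68.7, 60.8 and 39.9 CPM in the knockout. The groups did not overlap, and knockout replicate 3 was the lowest library. SEMA7A fell 2.01-fold (log2 fold change -1.01 ± 0.22 SE, adjusted p = 0.0396 in edgeR's test), and its log2 fold change was -0.82 without that library (adjusted p = 0.0162). Its plexin receptor PLXNC1 was low, at 1.31, 1.57 and 2.26 CPM in WT and 1.87, 1.96 and 1.38 CPM in the knockout.

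None of the 5 tested class 4 semaphorins, which span the membrane, passed in edgeR's test. SEMA4G had the most negative fold change of all 40 genes: it was at 7.69, 13.8 and 13.0 CPM in WT and 0.344, 2.87 and 2.30 CPM in the knockout. The groups did not overlap, while the knockout libraries varied several-fold among themselves, and the log2 fold change of -2.64 ± 0.67 (SE) had an adjusted p of 0.0606 in edgeR's test, 0.0457 without knockout replicate 1 and 0.178 at most with 1 library left out. DESeq2 gave SEMA4G an adjusted p of 0.000493, and limma-voom and both limma-trend fits on log2 RPKM called it as well. These were 4 of the 10 alternatives other than leaving a library out. SEMA4G overlaps MRPL43, a mitochondrial ribosome gene on the opposite strand, with 4156 WT and 2402 knockout counts, which fell with a log2 fold change of -0.85 (adjusted p = 0.0303 in edgeR's test). The strand setting of the counting was not found in the labels or headers. How reads from any stretch shared by SEMA4G and MRPL43 were assigned is therefore not known, and overlap of their exons was not examined. Of 11 tested genes within 500 kb of SEMA4G, 4 were called: HIF1AN, MRPL43, LZTS2 and KAZALD1. Log2 fold changes of these 11 neighbours ran from -1.28 to 0.68, and their median was -0.50. For chromosome 10 as a whole the median was -0.18. Whether SEMA4G shares its fall with its neighbours was not tested.

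Of the other class 4 genes, SEMA4C, a ligand of PLXNB2, was at 26.1, 27.4 and 27.3 CPM in WT and 34.8, 32.6 and 48.4 CPM in the knockout. Its groups did not overlap, with an adjusted p of 0.128 in edgeR's test. SEMA4D, the ligand of PLXNB1, was at 53.4, 49.2 and 48.6 CPM in WT and 61.5, 73.7 and 41.9 CPM in the knockout. Knockout replicate 3 was here the lowest of the 6 libraries and the other knockout libraries the highest. SEMA4F was at 60.1, 59.2 and 67.2 CPM in WT and 44.9, 40.8 and 59.8 CPM in the knockout, and passed without knockout replicate 3 (log2 fold change -0.55, edgeR adjusted p = 0.0251, beside 0.239 with all libraries). SEMA4B was at 47.7, 29.2 and 46.8 CPM in WT and 29.7, 48.0 and 25.2 CPM in the knockout, and the groups overlapped. SEMA4A was not tested, with 18 WT and 21 knockout counts.

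Class 6 semaphorins are transmembrane ligands of A-type plexins, and none passed in edgeR's test. SEMA6B was at 7.35, 14.0 and 11.95 CPM in WT and 17.5, 11.2 and 12.8 CPM in the knockout. SEMA6C was at 3.99, 3.95 and 4.82 CPM in WT and 2.21, 2.67 and 2.20 CPM in the knockout. SEMA6D was at 2.62, 0.710 and 2.31 CPM in WT and 0.738, 1.01 and 0.768 CPM in the knockout. Of these, SEMA6C did not overlap between the groups (log2 fold change -0.85 ± 0.25 SE, adjusted p = 0.0938). SEMA6A had 39 and 11 counts in the groups, 32 of the 39 in WT replicate 1. SEMA5A and SEMA5B, of the class with thrombospondin repeats, had 16 and 25 counts and 6 and 4 counts in WT and knockout, in that order.

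**Figure D2:**
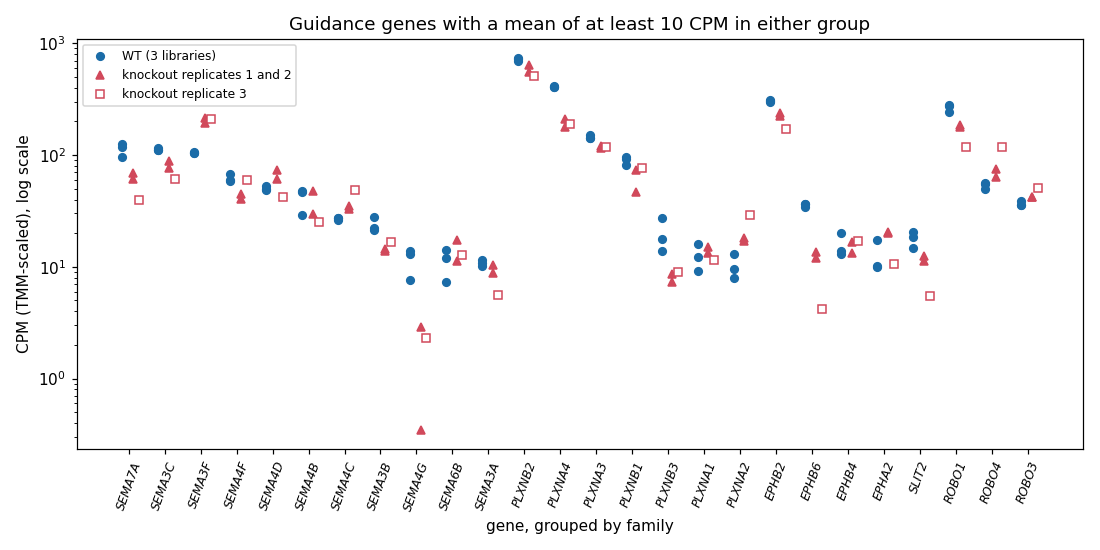
Level in each library, in CPM on a log scale, of the 26 guidance genes whose mean reached 10 CPM in a group; circles are WT, triangles knockout replicates 1 and 2, and open squares knockout replicate 3. PLXNA4 and SEMA3F show tight groups far apart, whereas for ROBO4, SEMA4C and EPHB6 the open square lies beyond the triangles.

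The 9 plexins were all tested, of which PLXNA4 and PLXNB3 fell and 7 did not pass. PLXNA4 is a receptor for class 6 semaphorins and, with neuropilins, for class 3 semaphorins. Its levels were 407, 416 and 406 CPM in WT and 209, 179 and 191 CPM in the knockout. The spread within a group was small beside the gap between groups. The log2 fold change was -1.09 ± 0.09 (SE), with an adjusted p of 0.00214 in edgeR's test and 0.00185 to 0.0237 over the fits with 1 library left out. PLXNB3, known as the receptor of SEMA5A, was at 27.6, 13.9 and 17.6 CPM in WT and 8.66, 7.25 and 9.01 CPM in the knockout. WT replicate 1 was well above the other WT libraries, and the knockout libraries lay close together under all of them. PLXNB3 fell 2.37-fold (log2 fold change -1.24 ± 0.28 SE, adjusted p = 0.0424 in edgeR's test). The call was lost with library size alone as the scaling, with limma-voom and on log2 RPKM.

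Of the 7 plexins that did not pass, 4 had a log2 fold change below 0. PLXNB2, a receptor of class 4 semaphorins, was at 722, 746 and 689 CPM in WT and 553, 633 and 512 CPM in the knockout (log2 fold change -0.35 ± 0.10 SE, adjusted p = 0.0803 in edgeR's test). PLXNA3, which works with neuropilin-2, was at 143, 143 and 153 CPM in WT and 116, 119 and 118 CPM in the knockout. The groups of both genes were apart, and PLXNA3 passed without knockout replicate 3 (adjusted p = 0.0298, beside 0.0665 with all libraries). PLXNB1 was at 81.3, 92.8 and 97.0 CPM in WT and 73.3, 46.7 and 76.5 CPM in the knockout, where replicate 2 was the lowest library. PLXNA2 stood on the other side, at 13.1, 9.53 and 7.97 CPM in WT and 18.2, 17.0 and 29.3 CPM in the knockout. All its knockout values exceeded all WT values, at a log2 fold change of 1.08 ± 0.29 (SE) and an adjusted p of 0.0700 in edgeR's test. PLXNA1 was at 16.1, 9.23 and 12.1 CPM in WT and 15.1, 13.3 and 11.6 CPM in the knockout. PLXND1, the receptor of SEMA3E, was at 6.72, 9.89 and 7.77 CPM in WT and 6.98, 8.01 and 4.40 CPM in the knockout. Neither separated the groups.

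Neuropilins are the co-receptors through which SEMA3F and most of its class reach A-type plexins. NRP2, the SEMA3F co-receptor, was at 544, 548 and 593 CPM in WT and 263, 226 and 229 CPM in the knockout. It fell 2.34-fold (log2 fold change -1.23 ± 0.09 SE, adjusted p = 0.00207 in edgeR's test) and passed with each library left out. NRP1, chosen for naming once its values were known, was at 1358, 1313 and 1318 CPM in WT and 796, 859 and 955 CPM in the knockout. It fell 1.53-fold (log2 fold change -0.61 ± 0.09 SE, adjusted p = 0.0105 in edgeR's test), and was called in 2 of 6 leave-one-out fits, with an adjusted p of up to 0.0632. NRP1 lies on chromosome 10, where the median log2 fold change of tested genes was -0.18. In these cells the ligand transcript SEMA3F was higher and the transcripts of NRP2, PLXNA4 and, with less support, NRP1 lower. PLXNA1, PLXNA2 and PLXNA3 did not pass. Of these, PLXNA2 lay higher in every knockout library (log2 fold change 1.08) and PLXNA3 lower (-0.31), while the groups of PLXNA1 overlapped.

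**Figure D3:**
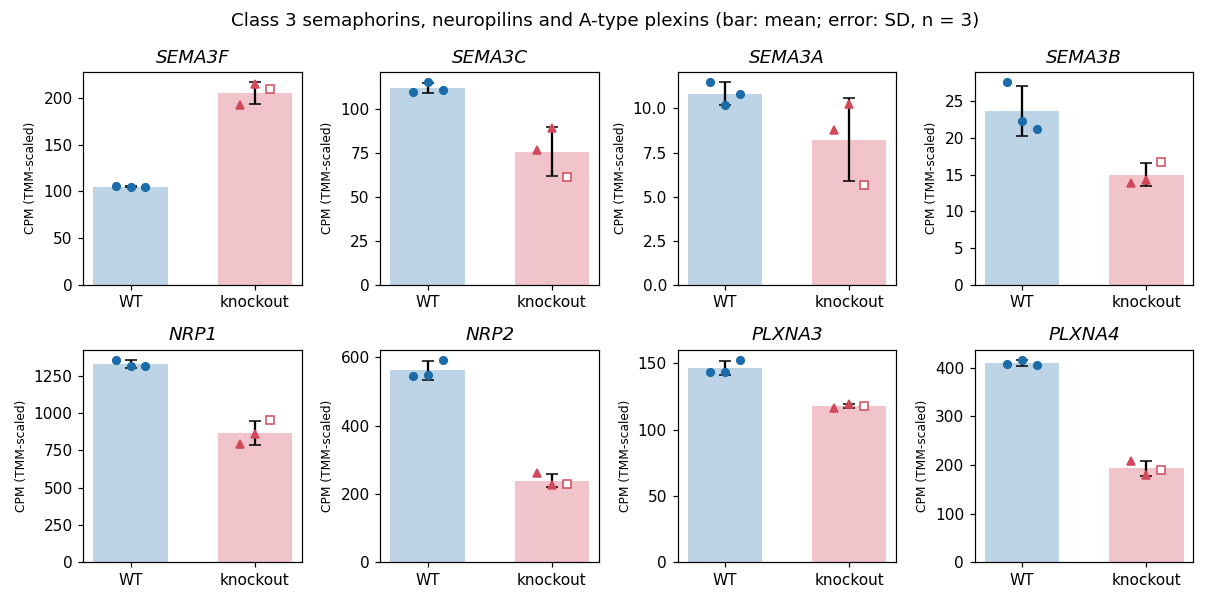
CPM of 4 class 3 semaphorins, both neuropilins and PLXNA3 and PLXNA4; bars are means, error bars SD over 3 libraries, and points single libraries with knockout replicate 3 as an open square. SEMA3F is at 105 CPM in WT and 206 CPM in the knockout, PLXNA4 at 409.8 and 193 CPM, and NRP2 at 562 and 239.5 CPM.

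Sequence upstream of the start sites is shown for SEMA3F and PLXNA4, the genes called with every library left out, because they moved in opposite directions. RefSeq windows on GRCh38.p14 were available for 37 of the 40 tested genes. Shown are the 250 bases before the most upstream listed start of SEMA3F (chr3:50154808-50155057, plus strand) and before the listed start of PLXNA4 (chr7:132576471-132576720, minus strand), 5′ to 3′. Capitals mark matches on either strand to the GC box GGGCGG, the E-box CACGTG, the TATA box TATAAA, the AP-1 site TGANTCA or the CCAAT box CCAAT.
SEMA3F: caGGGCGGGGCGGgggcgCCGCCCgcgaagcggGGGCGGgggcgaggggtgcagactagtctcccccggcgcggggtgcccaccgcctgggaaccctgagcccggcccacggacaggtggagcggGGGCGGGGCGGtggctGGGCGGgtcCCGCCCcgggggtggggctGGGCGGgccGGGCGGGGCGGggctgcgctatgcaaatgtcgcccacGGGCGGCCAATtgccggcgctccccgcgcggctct
PLXNA4: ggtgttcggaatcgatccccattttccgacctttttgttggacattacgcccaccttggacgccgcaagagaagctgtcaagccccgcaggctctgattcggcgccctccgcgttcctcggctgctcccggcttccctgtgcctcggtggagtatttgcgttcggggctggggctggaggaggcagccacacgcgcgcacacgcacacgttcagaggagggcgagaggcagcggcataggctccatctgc
The SEMA3F window held 12 GC boxes, overlapping matches included, and 1 CCAAT box, whereas the PLXNA4 window held none of the 5 motifs. The GC content of the SEMA3F window was 82.0% with 34 CpG dinucleotides, beside 63.6% and 23 for PLXNA4. The other SEMA3F windows held 2 and 0 GC boxes and no CCAAT box, at 80.4% GC with 42 CpG and 52.8% with 2. The richer of these also lay above PLXNA4 in GC boxes, GC content and CpG. The poorer lay under PLXNA4 in GC content and CpG, and it too held no GC box. Over all 35116 windows the median was 58.0% and 11. A GC box was present in 42.6% of all windows, a CCAAT box in 32.0%, a TATA box in 10.7%, an AP-1 site in 6.57% and an E-box in 6.34%. Of the 58 windows of tested guidance genes, 44 held a GC box (75.9%) and none the TATA box, and their median GC content was 67.0%. The 35116 windows include those of genes not tested here, so the sets are unlike. Shares over the windows of all tested genes were not computed, and nothing particular to guidance genes is read from these values. The other called genes ranged from 48.0% GC for EPHB6 to 77.6% for the richer of the SEMA7A windows. A match is a run of letters and no evidence of binding, and its part in the differences was not tested. The PLXNA4 window lies inside the longer gene that GENCODE v29 annotates, and the last bases of the SEMA3F window lie inside the GENCODE gene.

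Eph receptors are the largest group of receptor tyrosine kinases. Of 14 genes 9 were tested, of which EPHB6 fell and 8 did not pass. EPHB6 has lost the activity of its kinase domain. It was at 36.6, 34.3 and 36.5 CPM in WT and 12.002, 13.4 and 4.20 CPM in the knockout. WT libraries were close together, and the knockout libraries lay well under them, with replicate 3 lowest. EPHB6 fell 3.62-fold (log2 fold change -1.86 ± 0.40 SE, adjusted p = 0.0388 in edgeR's test), and its log2 fold change was -1.50 without knockout replicate 3 (adjusted p = 0.00220).

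EPHB2, which steers axons and sorts cells, was at 311, 306 and 296 CPM in WT and 239, 226 and 169 CPM in the knockout. Its groups were apart, at a log2 fold change of -0.53 ± 0.14 (SE) and an adjusted p of 0.0647 in edgeR's test, or 0.00926 without knockout replicate 3. EPHB4, a receptor of vessel growth, was at 20.2, 12.9 and 13.9 CPM in WT and 13.4, 16.6 and 17.1 CPM in the knockout. EPHA2, often raised in tumours, was at 17.5, 9.89 and 10.1 CPM in WT and 20.6, 19.99 and 10.6 CPM in the knockout. In both genes the groups overlapped. EPHA4, which binds ephrins of both types, was at 6.38, 10.3 and 6.35 CPM in WT and 7.08, 4.58 and 7.98 CPM in the knockout. EPHA10, another receptor without an active kinase, was at 5.98, 7.25 and 6.39 CPM in WT and 6.64, 7.30 and 14.9 CPM in the knockout, and knockout replicate 3 alone lay clearly above WT. EPHB1 was at 5.41, 2.89 and 1.72 CPM in WT and 4.48, 2.97 and 2.05 CPM in the knockout. EPHA6 was at 0.740, 1.01 and 1.38 CPM in WT and 0.836, 0.503 and 0.409 CPM in the knockout. EPHA1 stayed under 1 CPM in all libraries. EPHA3 and EPHA7 had 0 counts throughout, and EPHA5, EPHA8 and EPHB3 had between 0 and 6 counts in a group.

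The 4 ephrins are A-type ligands, which a lipid anchor holds to the membrane. None passed in edgeR's test, none had an unadjusted p under 0.05, and neither DESeq2 nor limma-voom called one. EFNA5, known from the mapping of axons in the visual system, was at 8.09, 9.08 and 7.77 CPM in WT and 5.66, 8.66 and 9.52 CPM in the knockout. EFNA3 was at 1.37, 0.963 and 1.28 CPM in WT and 1.38, 1.61 and 1.59 CPM in the knockout. EFNA4 was at 2.05, 0.913 and 0.885 CPM in WT and 0.738, 0.604 and 1.07 CPM in the knockout. These genes were low, EFNA3 was higher in each knockout library by a small margin, and the others overlapped. EFNA1 was at 0.740, 1.17 and 0.738 CPM in WT and 0.197, 2.32 and 0.358 CPM in the knockout, with knockout replicate 2 highest.

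Among Slit and Robo genes none passed in edgeR's test. An unadjusted p under 0.05 was found for 1 of 1 tested Slit gene and 2 of 3 tested Robo genes, against 24.7% of all tested genes. The same held for 5 of 9 plexins, 7 of 14 semaphorins and 2 of 9 Eph receptors tested, and for 17 of all 40 guidance genes. Of the Slit and Robo genes, DESeq2 called ROBO1 alone and limma-voom none. ROBO1, the broadly expressed Slit receptor, was at 243, 278 and 276 CPM in WT and 179.6, 187 and 119 CPM in the knockout. The groups were apart, at a log2 fold change of -0.72 ± 0.18 (SE) and an adjusted p of 0.0586 in edgeR's test, or 0.00966 without knockout replicate 3. SLIT2, its best-known ligand, was at 14.9, 20.6 and 18.5 CPM in WT and 11.2, 12.6 and 5.42 CPM in the knockout (log2 fold change -0.89 ± 0.32 SE, adjusted p = 0.153 in edgeR's test). SLIT2 lies on chromosome 4, where the median log2 fold change of tested genes was -0.21.

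ROBO4, a receptor known from endothelial cells, and ROBO3, which controls midline crossing of axons, lay on the other side of WT. ROBO4 was at 56.2, 49.99 and 55.0 CPM in WT and 64.0, 74.7 and 118 CPM in the knockout. ROBO3 was at 38.8, 35.6 and 35.4 CPM in WT and 42.4, 41.9 and 50.4 CPM in the knockout. Every knockout value exceeded every WT value in both genes, with log2 fold changes of 0.67 ± 0.23 and 0.29 ± 0.13 (SE) and adjusted p of 0.131 and 0.209 in edgeR's test. Both lie on chromosome 11, where the median log2 fold change of tested genes was 0.24. Of 7 endothelial markers 6 were in the table. TIE1 was at 19.8 to 22.6 CPM in WT and 34.8 to 37.6 CPM in the knockout, 5 had a mean under 1 CPM and VWF had 0 counts. The summed level of the list was 19.8 to 23.9 CPM in WT and 34.8 to 38.0 CPM in the knockout, and its part in the ROBO4 values was not tested. ROBO2, SLIT1 and SLIT3 were not tested, with 8 and 5, 1 and 9, and 25 and 10 counts in WT and knockout.

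Partner genes of these signals, for proteins at the cell surface, secreted or inside the cell, were counted from 4 lists, of which 91 different genes were tested. Of these, 2 rose, 9 fell and 80 did not pass, which is 11 of 91 beside 7.84% of all tested genes, and the median log2 fold change was -0.11, beside 0.05 for all. Of 31 semaphorin co-receptors and signalling genes 1 rose and 5 fell. The riser was DPYSL2, a collapsin response mediator of axon collapse, at 320.3, 358 and 356 CPM in WT and 472, 480.0 and 439 CPM in the knockout. It rose 1.34-fold (adjusted p = 0.0290 in edgeR's test, up to 0.113 with 1 library left out, where it passed in 1 of 6 fits). Those that fell were NRP2, NRP1, FYN and, also named once values were known, the actin-oxidising enzyme gene MICAL1 and PLXDC2, a plexin domain protein, with log2 fold changes of -0.84 ± 0.14 and -0.84 ± 0.19 (SE). MICAL1 and PLXDC2 were called in 2 and 1 of 6 leave-one-out fits, with an adjusted p of up to 0.0858 and 0.144. They lie on chromosomes 6 and 10, where the median log2 fold changes of tested genes were -0.27 and -0.18.

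Of 34 Eph and ephrin signalling genes VAV2 rose and FYN, MMP2 and RGS3 fell. FYN, which is in both lists, a Src family kinase that acts below plexins and Eph receptors, was at 220.4, 228 and 220.3 CPM in WT and 129, 118 and 121 CPM in the knockout. It fell 1.82-fold (log2 fold change -0.86 ± 0.08 SE, adjusted p = 0.00384 in edgeR's test) and passed with each library left out. FYN lies on chromosome 6, where the median log2 fold change of tested genes was -0.27. VAV2, an exchange factor of Rac, was at 211, 218 and 212 CPM in WT and 257, 268 and 274 CPM in the knockout, 1.25-fold higher (adjusted p = 0.0477, up to 0.176 with 1 library left out). The protease gene MMP2 and RGS3, which links ephrins to G proteins, had log2 fold changes of -0.83 ± 0.08 and -0.81 ± 0.09 (SE) and passed with each library left out; they too were named once values were known.

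Among 23 Slit and Robo signalling genes ENAH and CAP2 fell and 21 did not pass. ENAH, an Ena protein that extends actin filaments and binds Robo receptors, was at 222, 234 and 236 CPM in WT and 122, 100.5 and 72.4 CPM in the knockout. CAP2, an adenylyl cyclase-associated actin regulator, was at 49.2, 42.2 and 34.7 CPM in WT and 19.1, 22.4 and 20.8 CPM in the knockout. They fell 2.34-fold and 2.03-fold (log2 fold changes -1.23 ± 0.19 and -1.02 ± 0.16, SE), at adjusted p of 0.0137 and 0.0172 in edgeR's test, and each was called in 2 of 6 leave-one-out fits. Without knockout replicate 3 the values for ENAH and CAP2 were -1.06 and -1.03.

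Positions are given on GRCh38 from GENCODE v29. SEMA3F lies on the plus strand of chromosome 3 from 50155045 to 50189075, and SEMA3B begins 78.5 kb further on, from 50267558 to 50277546. These neighbours differed in direction: SEMA3F rose, and SEMA3B had lower values in every knockout library without passing. Of 29 tested genes within 500 kb of SEMA3F, HYAL2 alone was called, with a median log2 fold change of 0.20. PLXNA4 spans 132123332 to 132648688 on the minus strand of chromosome 7 and EPHB6 142855061 to 142871094 on the plus strand of the same chromosome, 10.2 Mb away. No tested gene within 500 kb of PLXNA4 (1 gene) or EPHB6 (5 genes) was called in edgeR's test, though the PLXNA4 neighbour had a log2 fold change of -0.62 and the EPHB6 neighbours a median of -0.43. SEMA7A spans 74409289 to 74433958 on chromosome 15 (minus strand) and PLXNB3 on the plus strand of the X chromosome from 153764196 to 153779346. Within 500 kb of SEMA7A, 2 of 16 tested genes were called (ARID3B and MPI), with a median of -0.12. Within the same distance of PLXNB3, 2 of 16 were called (SLC6A8 and L1CAM), with a median of -0.01. The medians of chromosomes 3, 7, 15 and X were 0.05, -0.02, 0.04 and -0.01, and taking each off left the 5 called genes between -1.83 and 0.92. SRPK3, which overlaps PLXNB3 on the same strand, had 28 and 30 counts in WT and knockout, and the antisense SEMA3F-AS1 had 5 and 18.

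Guidance genes include some of the longest genes, and the guidance genes with a long mean transcript span lay on the lower side. The cut at a mean transcript span of 100 kb was chosen after the values were seen. All 9 tested guidance genes above it, EFNA5, EPHA6, EPHB1, EPHB2, PLXNA4, ROBO1, SEMA3A, SEMA6D and SLIT2, had log2 fold changes below 0, with a median of -0.72, and PLXNA4 alone passed. EPHB1 and EFNA5 lay within their SE of 0, at -0.07 ± 0.49 and -0.07 ± 0.24 (SE). Among all 946 tested genes of that span 54.0% were below 0 and the median was -0.07. The 15 guidance genes under 10 kb had a median of -0.33, beside 0.10 for all 4407 genes of that span. Between these spans the medians were 0.05 over 10 guidance genes at 10 to 30 kb and 0.12 over 6 at 30 to 100 kb. Without knockout replicate 3 the median of the 9 long genes was -0.54, and that of all genes over 100 kb -0.06. EPHB1 was then above 0, at 0.15, and the other 8 below 0. The pattern depends on the measure of length. By the span of the whole gene, PLXNA2, SEMA3D, SEMA4D and PLXNC1 were also over 100 kb. With all libraries their log2 fold changes were above 0, at 1.08, 0.49, 0.23 and 0.02. EPHA4 and SEMA3C were over 100 kb by that measure too, at -0.23 and -0.56.

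**Figure D4:**
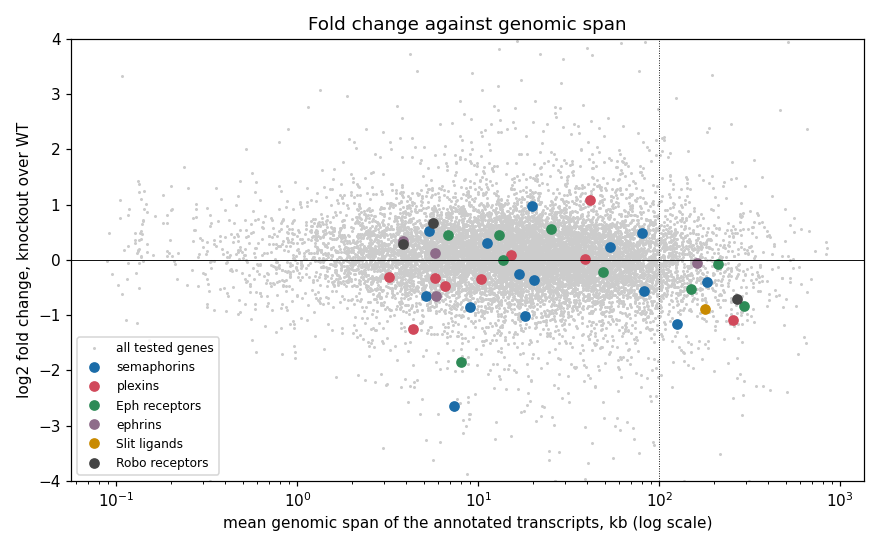
Log2 fold change of each tested gene against the mean genomic span of its annotated transcripts on a log scale; grey points are all genes and coloured points the guidance genes by family. The axis ends at 4 in either direction, beyond which 60 genes lie. The dotted line marks 100 kb, and the 9 guidance genes to its right are all below 0, EPHB1 and EFNA5 by less than their SE.

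Genes were ranked by level only per length, first as the deposited RPKM. Where a gene is called low above, this refers to CPM, which is not scaled by length. In WT the highest were PLXNB2 at 63.4 ± 1.68 RPKM (SD, n = 3), PLXNA3 at 44.6 ± 2.21 and PLXNB1 at 13.4 ± 1.27, each apart from the next beyond its SD. ROBO4 at 9.51 ± 0.687 and ROBO3 at 9.36 ± 0.495 RPKM followed and did not differ beyond their spread. SEMA7A at 6.13 ± 0.849 and SEMA3F at 5.21 ± 0.0953 RPKM came next among semaphorins. In the knockout SEMA3F was at 10.6 ± 0.762 RPKM, above SEMA7A at 3.15 ± 0.750 RPKM. The order rests on the length used: for 73.0% of 37 guidance genes averaging 20 counts or more it was within 5% of the mean genomic span of the transcripts, and for none within 5% of the exon length. Per kilobase of annotated exons PLXNB2 remained at the top of the order, and 5 of the 10 highest genes were shared. PLXNA4, at 1.58 ± 0.00895 RPKM and place 15 by RPKM, stood in place 3 per kilobase of exon. ROBO1 moved from place 20 to place 4, EPHB2 from 14 to 5 and PLXNA3 from 2 to 8. The labels and headers do not say whether reads from introns were counted, and these places hold only for the stated length.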

How the data were processed

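Total RNA depleted of ribosomal RNA was measured in 6 libraries, 3 of WT and 3 of TOP3B knockout cells. The authors deposited, per gene and library, an estimated count rounded to a whole number and an RPKM value. Salmon 1.10.1 and hg19 appear in the submitters' processing notes, with roles not given in the sources used here. WT labels carry replicate numbers. Knockout labels do not, and theirs follow the order of deposition. One row, named differently in the tables, was left out.

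Genes were filtered with filterByExpr, scaled by TMM and tested with edgeR 4.0.16 (quasi-likelihood F test, R 4.3.3), and p-values were adjusted by the Benjamini-Hochberg method over 13965 genes, with calls at 0.05. A positive fold change means a higher level in the knockout, and its standard error comes from the F statistic. The test was tried on simulated data. Alternatives were DESeq2 1.42.0, limma-voom and limma-trend on log2 RPKM (limma 3.58.1, pseudocounts 1 and 0.1), other scalings and filters, a robust fit and each library left out. Genome positions and exon lengths are from GENCODE v29 (GRCh38). No hg19 position is used.

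The genes and lists were chosen with earlier results of these data known. By the naming rule, genes whose mean reached 1 CPM in a group, and called genes, have a value per library. Partner lists name at most 2 genes each: those with the largest called changes, 1 per direction where both occur. Others are stated as chosen after their values were seen. The result of 1 partner list is not reported here, though its genes are in the partner total. Blood and neural marker lists summed to 10.2 to 15.4 and 12.9 to 13.9 CPM in WT and 3.79 to 13.1 and 6.85 to 11.8 CPM in the knockout.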

Additional observations from a re-analysis of the deposited data

How the results depend on the processing

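The number of guidance genes called, of the 40 tested, was 5, and 13 with DESeq2. It ranged from 2 to 11 with 1 library left out: 2 without any WT replicate or without knockout replicate 2, 3 without knockout replicate 1 and 11 without knockout replicate 3. The count over all genes was 1095, 2073 with DESeq2 and 223 to 1899 with 1 library left out. The 1899 came from the fit without knockout replicate 3, which called 13.2% of its 14358 genes, beside 7.84% with all libraries. The partner count was 11, 18 with DESeq2 and 4 to 20 with 1 library left out. The median log2 fold change of the tested guidance genes was -0.29, and -0.11 and -0.014 with limma-trend on log2(RPKM + 0.1) and log2(RPKM + 1). A pseudocount shrinks low values, and these fits also used the deposited RPKM without TMM scaling. The parts of the pseudocount and the scaling in these medians were not tested apart. Of the 10 highest genes by RPKM, 5 were among the 10 highest per kilobase of exon. All 11 called genes among the 49 tested again kept their sign in each alternative, and 10 further guidance genes were called by at least 1 alternative. The share of all genes called by at least 1 alternative was not computed, so nothing particular to guidance genes is read from these 10. Signs changed in 28 of 785 values, all of genes not called with all libraries. No paired analysis was possible because the knockout labels carry no replicate numbers. Depth limits the 16 guidance genes under 1 CPM in both groups.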
